A study of Mus musculus with 5 samples.

Results

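The genes described here encode enzymes that hydroxylate and crosslink collagen: Lox, Loxl1, Loxl2, Loxl3 and Loxl4, Plod1, Plod2 and Plod3, and P4ha1 and P4ha2. These 10 genes were chosen by name, not by a cut on their measured values, but with earlier results of these data known. All 10 were found among the 31055 genes listed in the count matrices. They were followed in Prx1-derived mesenchymal cells of mouse skeletal muscle after a bone fracture, with or without an added muscle injury. Collagen chains are hydroxylated in the endoplasmic reticulum: prolyl 4-hydroxylases make the hydroxyproline that stabilizes the triple helix, and lysyl hydroxylases make the hydroxylysine used for sugar attachment and for crosslinks. After secretion, lysyl oxidases oxidize lysine and hydroxylysine, and the aldehydes formed link collagen molecules to each other and elastin chains to each other. In injured tissue these enzymes are known for setting the stiffness of the matrix and its resistance to degradation.

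Single-cell RNA-seq (scRNAseq) was performed on GFP+ cells sorted from the skeletal muscles around the tibia of Prx1Cre;mTmG mice (Prx1Cre;RosamTmG in the study's methods) kept on a C57BL6/J background, males or females aged 10 to 14 weeks, with periosteum and bone marrow left out and 2 mice pooled in each library. In these mice Prx1-Cre, which is active in the limb mesenchyme, permanently turns on GFP in a cell and its progeny. The 5 libraries were uninjured muscle (d0), muscle at d3 and d5 after a non-stabilized tibial fracture (post-fracture), and muscle at d3 and d5 after the same fracture with mechanical injury of the adjacent muscles (post-polytrauma). Each condition had 1 library, so no difference between conditions could be tested, and the 95% intervals below (exact Poisson for levels, exact conditional for ratios, exact Clopper-Pearson for shares of cells) cover counting error only.

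The deposited labels of the libraries called d5 post-fracture and d3 post-polytrauma here were exchanged, following the cell numbers that the study lists for each condition. Values with the labels as deposited are given below for the comparisons in which they changed the direction or the call of an enzyme gene with at least 5 CPM. The lists of other genes also changed with these labels, and their counts as deposited are given below except against d0. The d5 libraries also used another set of cell barcodes than d0 and both d3 libraries, with 944 barcodes shared between the d5 libraries, 405 to 525 between pairs of the other 3 libraries and 0 to 3 across the sets. Day 5 and this difference in library preparation therefore cannot be told apart. After filtering, 29831 of 34439 barcodes remained, 1468 to 11941 in a library, with a median of 3640 (d0) to 34949 UMIs per cell (d5 post-fracture). Levels are UMIs summed over the cells of a library or cluster per 1000000 UMIs (CPM). Shares of cells with a UMI were taken after each cell was thinned to 2000 UMIs, which left out 744 shallower cells in d0, 225 and 30 in d3 and d5 post-fracture, and 83 and 424 in d3 and d5 post-polytrauma. In a sum over a library, fewer cells of a type and less RNA in each cell cannot be told apart. The 5 markers of fibro-adipogenic and mesenchymal progenitors (FAP/MP), Pdgfra, Cd34, Ly6a, Prrx1 and Cxcl12, were detected in every library and summed to 933 to 2332 CPM, against 12.9 to 54.5 CPM for 6 hematopoietic, 3.64 to 48.7 CPM for 5 endothelial and 0.287 to 3.72 CPM for 5 myogenic markers. Cells with at least 2 dividing-cell markers made up 0.0514% of thinned cells at d0 and 9.67% to 16.8% after injury. Cells with at least 2 chondrocyte markers made up 30.0% at d5 post-fracture and 0.180% to 3.76% elsewhere. At d5 post-fracture these were 431 cells, while the chondrocyte-like cluster described below held 187. Leaving out cells with chondrocyte markers, as below, therefore also removed cells outside that cluster.

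Hydroxylation by these enzymes needs oxygen, and several of their genes are known targets of hypoxia-inducible factor. P4ha1, P4ha2 and Plod1 were the members most above the other cells in a cluster led by Ndufa4l2, Pgk1 and other hypoxia-induced genes, described below, so the 250 bases before their RefSeq transcription starts are shown (GRCm38.p6). RefSeq promoters were listed for 5 of the 10 genes, Loxl4, Plod1, Plod3, P4ha1 and P4ha2. Capitals mark the hypoxia response cores ACGTG and GCGTG, searched on both strands (so also read as CACGT and CACGC). The windows are chr10:59323046-59323295 on the plus strand for P4ha1, chr11:54100674-54100923 on the plus strand for P4ha2, which lies inside the annotated span of the gene, and chr4:147936777-147937026 on the minus strand for Plod1.
P4ha1: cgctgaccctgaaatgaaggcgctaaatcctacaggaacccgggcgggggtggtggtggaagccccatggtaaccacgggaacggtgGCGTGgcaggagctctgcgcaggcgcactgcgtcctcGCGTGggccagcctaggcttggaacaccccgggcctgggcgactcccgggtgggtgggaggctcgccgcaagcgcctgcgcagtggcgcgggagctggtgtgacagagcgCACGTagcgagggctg
P4ha2: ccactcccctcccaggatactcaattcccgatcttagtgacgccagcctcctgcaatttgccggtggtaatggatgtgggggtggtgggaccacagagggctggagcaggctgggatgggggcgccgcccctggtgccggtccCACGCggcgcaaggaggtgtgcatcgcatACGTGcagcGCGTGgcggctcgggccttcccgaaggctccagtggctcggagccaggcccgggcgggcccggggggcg
Plod1: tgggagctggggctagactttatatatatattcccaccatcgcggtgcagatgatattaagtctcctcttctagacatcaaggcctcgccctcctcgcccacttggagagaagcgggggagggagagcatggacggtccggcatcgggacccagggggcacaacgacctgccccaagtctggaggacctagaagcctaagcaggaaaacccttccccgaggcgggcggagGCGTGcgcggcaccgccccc
The P4ha1 and P4ha2 windows each held 1 ACGTG and 2 GCGTG, the Plod1 window held 0 and 1, the Plod3 window 1 and 3, and the Loxl4 window 0 and 1. Plod3 had the most of these cores and was not printed, since its level was near that of the other cells in the cluster by which the printed genes were chosen. In d5 post-fracture it was highest in the chondrocyte-like cluster described below, at 247 CPM. Whether the cores bear on these levels was not tested. Among 32851 listed promoters, 16.6% held ACGTG and 28.2% held GCGTG in the same 250 bases, and a match of these letters is a description, not a binding site.

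Lox, the founding lysyl oxidase of fibrillar collagen and elastin (ENSMUSG00000024529, chromosome 18 from 52516067 to 52529867 in GRCm38), was at 109 CPM in d0 (104 to 114), 588 in d3 post-fracture (584 to 593), 604 in d5 post-fracture (598 to 611), 471 in d3 post-polytrauma (467 to 475) and 841 CPM in d5 post-polytrauma (837 to 845). All 4 injured libraries lay above d0, none of the intervals overlapped, and d5 post-polytrauma was 7.72 times d0. The share of thinned cells with a Lox UMI was 13.5% in d0 (12.4% to 14.6%), 64.5% in d3 post-fracture (63.2% to 65.7%), 56.1% in d5 post-fracture (53.5% to 58.7%), 54.6% in d3 post-polytrauma (53.3% to 55.8%) and 70.8% in d5 post-polytrauma (69.9% to 71.6%). Without thinning the shares were 20.4% in d0 and 93.2% to 95.3% after injury. Free RNA gives UMIs to cells that do not make a transcript, and in the hematopoietic-like cluster 9 of d3 post-polytrauma (median 3750 UMIs, against 15688 in its library) 9.88% of 81 thinned cells had a Lox UMI. Lox was at 107 CPM there against 471 in the library, and Loxl3 at 23.3 against 109. The levels were closer for Plod1 (50.4 against 75.8 CPM), Plod3 (58.2 against 99.2) and P4ha1 (54.3 against 116). The part of free RNA in the levels of these genes was not tested. Another cluster led by Lyz2, in d3 post-fracture, had Lox near the level of its library and is described at the end.

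Loxl3, a lysyl oxidase with scavenger receptor domains (ENSMUSG00000000693, chromosome 6 from 83034173 to 83052562), was at 29.1 CPM in d0 (26.7 to 31.8), 124 in d3 post-fracture (122 to 126), 110.4 in d5 post-fracture (108 to 113), 109 in d3 post-polytrauma (107 to 111) and 170.3 CPM in d5 post-polytrauma (169 to 172). It was lowest in d0, and the intervals of d5 post-fracture and d3 post-polytrauma overlapped. Loxl1, best known for elastic fibre assembly (ENSMUSG00000032334, chromosome 9 from 58287738 to 58313186), was at 143 CPM in d0 (138 to 149), 211 in d3 post-fracture (208 to 214), 232 in d5 post-fracture (228 to 237), 239 in d3 post-polytrauma (236 to 242) and 344 CPM in d5 post-polytrauma (342 to 347). Its levels spanned 2.40-fold, lowest in d0 and highest in d5 post-polytrauma, and those of d3 post-polytrauma and d5 post-fracture overlapped.

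Loxl2, which crosslinks basement membrane collagen IV among other substrates (ENSMUSG00000034205, chromosome 14 from 69609068 to 69695834), was at 179 CPM in d0 (173 to 186), 214 in d3 post-fracture (211 to 217), 279.9 in d5 post-fracture (275 to 285), 125 in d3 post-polytrauma (123 to 128) and 323 CPM in d5 post-polytrauma (320.3 to 325). Loxl2 and P4ha1 were the genes of the 10 that were lowest in d3 post-polytrauma. Loxl4, another member with scavenger receptor domains (ENSMUSG00000025185, chromosome 19 from 42593982 to 42612813), was at 2.24 to 3.82 CPM, with 39 UMIs in d0 and 523 in d5 post-polytrauma, and each library overlapped its neighbour in the order of levels. It was under 5 CPM in every library and is left out of the counts of genes past 2-fold between libraries. Of the UMIs of the 5 lysyl oxidase genes, Lox took 23.5% at d0 and 49.1% to 51.6% after injury, while Loxl2 took 38.8% at d0 and 13.2% to 22.7% after injury.

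**Figure D1:**
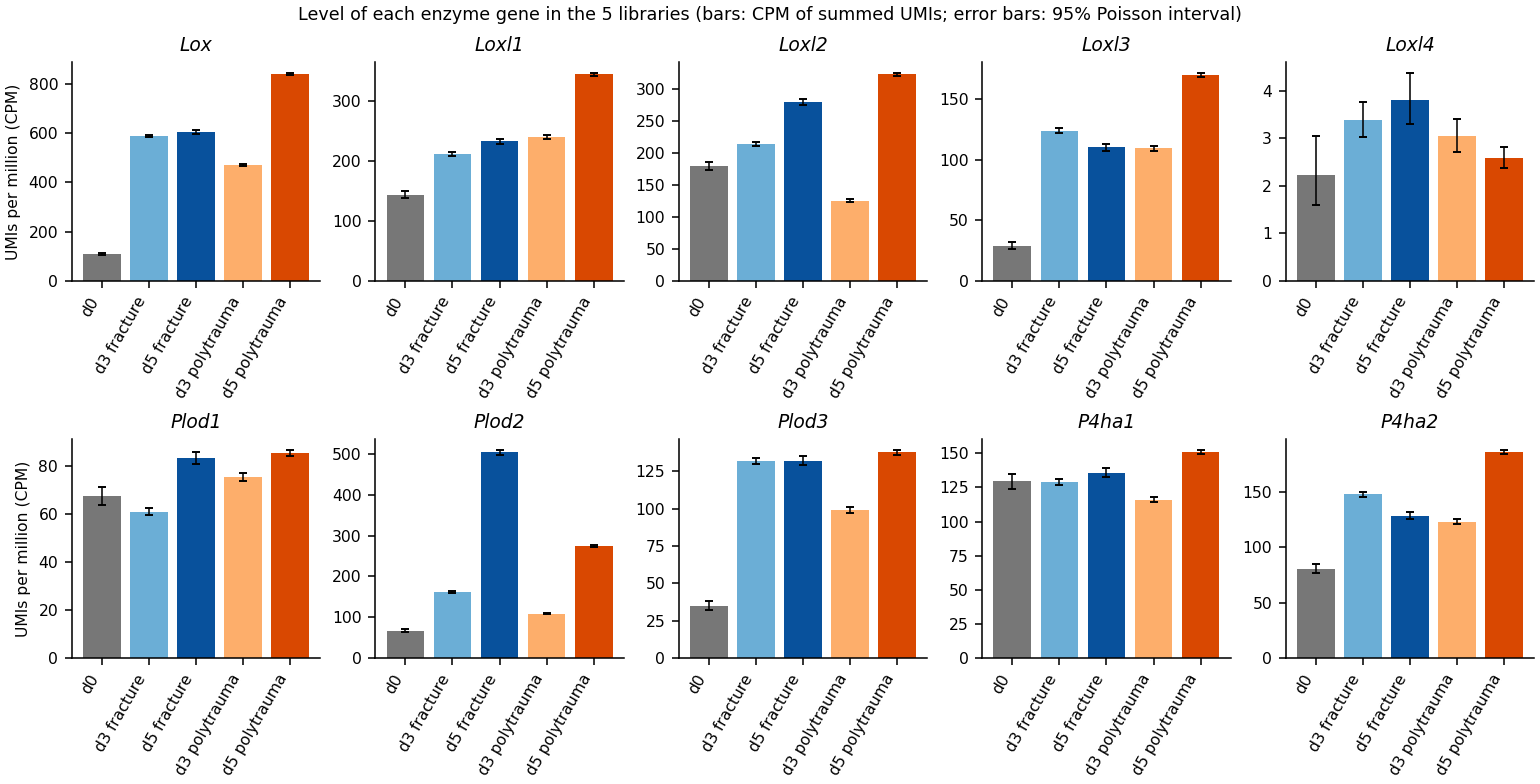
Levels of the 10 enzyme genes. Each panel is 1 gene with the 5 libraries on the x axis and UMIs per 1000000 (CPM, from 0) on the y axis; bars are the single library of each condition and error bars its 95% Poisson interval. Lox was at 109 CPM in d0 and between 471 and 841 CPM after injury, Plod2 reached 504 CPM in d5 post-fracture, and P4ha1 stayed between 116 and 151 CPM.

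Plod2, the lysyl hydroxylase of the collagen telopeptides, on which the kind of crosslink depends (ENSMUSG00000032374, chromosome 9 from 92542223 to 92608428), was at 66.4 CPM in d0 (62.6 to 70.3), 163 in d3 post-fracture (160.0 to 165), 504 in d5 post-fracture (498 to 511), 109 in d3 post-polytrauma (107 to 111) and 275 CPM in d5 post-polytrauma (273 to 277). No intervals overlapped, and the highest level was 7.60 times the lowest. A Plod2 UMI was found in 10.7% in d0 (9.72% to 11.7%), 27.4% in d3 post-fracture (26.2% to 28.6%), 48.5% in d5 post-fracture (45.9% to 51.1%), 20.7% in d3 post-polytrauma (19.7% to 21.7%) and 38.5% in d5 post-polytrauma (37.7% to 39.4%) of thinned cells, against 3.70% of the hematopoietic-like cells. Plod2 was higher in both d5 libraries than in both d3 libraries, and it was higher post-fracture than post-polytrauma on each day. For Lox the log2 ratio from d3 to d5 post-fracture was 0.04, and it was -0.21 with thinned cells.

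Plod3, which also has collagen glycosyltransferase activity (ENSMUSG00000004846, chromosome 5 from 136987019 to 136996648), was at 35.0 CPM in d0 (32.3 to 37.9), 132 in d3 post-fracture (129.7 to 134), 132 in d5 post-fracture (129 to 135), 99.2 in d3 post-polytrauma (97.3 to 101) and 138 CPM in d5 post-polytrauma (136 to 139). It was lowest in d0, and the post-fracture libraries overlapped. Plod1, which hydroxylates lysines of the helical part of collagen (ENSMUSG00000019055, chromosome 4 from 147909753 to 147936767), was at 67.6 CPM in d0 (63.8 to 71.5), 61.1 in d3 post-fracture (59.6 to 62.7), 83.6 in d5 post-fracture (81.1 to 86.1), 75.8 in d3 post-polytrauma (74.1 to 77.4) and 85.7 CPM in d5 post-polytrauma (84.4 to 87.0). Its levels spanned 1.40-fold, and the d5 libraries overlapped.

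P4ha1 and P4ha2 are catalytic alpha subunits that pair with the shared beta subunit P4hb. P4ha1 (ENSMUSG00000019916, chromosome 10 from 59323296 to 59373304) was at 129 CPM in d0 (124 to 135), 129 in d3 post-fracture (127 to 131), 136 in d5 post-fracture (133 to 139), 116 in d3 post-polytrauma (114 to 118) and 151 CPM in d5 post-polytrauma (149 to 153). It had the narrowest span of the 10 genes, 1.30-fold, and d0 overlapped both post-fracture libraries. P4ha2 (ENSMUSG00000018906, chromosome 11 from 54100095 to 54131665) was at 80.9 CPM in d0 (76.7 to 85.2), 148 in d3 post-fracture (146 to 150.5), 129 in d5 post-fracture (125 to 132), 123 in d3 post-polytrauma (121 to 125) and 186 CPM in d5 post-polytrauma (184 to 188). It was lowest in d0 and highest in d5 post-polytrauma, with no overlap between neighbours. Lox (AC161119.1), Loxl2 (Gm27177, Gm37513 and Mir6950), Loxl3 (Htra2 and Mir7040), Plod2 (Gm38391) and Plod3 (Znhit1 and Mir702) overlap other annotated genes. Mir6950, Mir7040 and Mir702 lie on the same strand as the enzyme gene they overlap, and the others on the opposite strand. The study names default Cell Ranger parameters without stating the strand setting, so reads from the shared stretches are uncertain.

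At d3 post-fracture against d0, Lox was 5.40 times (5.16 to 5.66) the d0 level, Loxl3 4.26 times (3.89 to 4.66), Plod3 3.77 times (3.47 to 4.09) and Plod2 2.45 times (2.31 to 2.60). These 4 of the 9 genes with at least 5 CPM were past 2-fold higher, against 11.8% of 9930 genes compared, and 0 were past 2-fold lower, against 30%. The ratios of all genes centred on -0.37 (log2), and relative to that median all 9 genes were higher, by 0.23 for Plod1 to 2.81 for Lox. At d3 post-polytrauma against the same d0 library, Lox was 4.32 times (4.13 to 4.53) the d0 level, Loxl3 3.75 times (3.43 to 4.11) and Plod3 2.83 times (2.61 to 3.08). These were 3 of 9 past 2-fold higher, against 11.1% of all genes, and 0 were lower, against 29.4%. Plod2 was 1.64 times (1.54 to 1.74) the d0 level there, and Loxl2, at 0.699 times (0.672 to 0.727), was the single gene below the all-gene median of -0.39. With the labels as deposited, Plod2 was also past 2-fold higher, which made 4 of 9, and its log2 ratio was 2.92 in place of 0.71. The log2 ratio of Loxl2 was then 0.64 in place of -0.52, and that of P4ha1 0.07 in place of -0.16. With thinned cells the count was also 4 of 9. With median-of-ratios scaling, Lox, Loxl1, Loxl3, Plod2, Plod3 and P4ha2 were past 2-fold higher in both comparisons, 6 of 9. The ratios of all genes then centred on 0.20 post-fracture and 0.15 post-polytrauma (log2). The share of all genes past 2-fold was not counted with these alternatives. Cell type markers differed between the same libraries: the 6 pericyte markers summed to 729 CPM in d0 and to 70.4 and 63.9 CPM in d3 post-fracture and d3 post-polytrauma, and the 4 tenocyte markers to 677, 50.8 and 31.2 CPM, with none of them at 0. The pericyte-like cluster described below held 16.3% of the d0 cells. The part of these cell types in the ratios was not tested.

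From d3 to d5 post-fracture, Plod2 was 3.1 times the d3 level (3.04 to 3.17). It was 1 of 9 genes past 2-fold higher, against 35.9% of all genes, and 0 were lower, against 4.22%. All genes centred on 0.61 (log2), the other 8 enzymes were below that median, by 0.16 (Plod1) to 0.82 (P4ha2), and Plod2 was above it by 1.02. All 8 of 8 listed collagen and elastin genes were past 2-fold higher in the same comparison, with Col1a1 at 5316 and 22711 CPM and Col2a1, the cartilage collagen, at 0.870 and 1525 CPM. With the labels as deposited, 0 of 7 compared were past 2-fold higher, and 7 of 7 had a lower level at d5. The Plod2 log2 ratio of 1.63 was 1.20 without cells with chondrocyte markers, 0.90 with median-of-ratios scaling and -0.58 with the labels as deposited. As deposited, Lox was at -0.32 in place of 0.04, Loxl2 at -0.77 in place of 0.39, P4ha1 at -0.15 in place of 0.07 and Plod3 at -0.41 in place of 0.00. From d3 to d5 post-polytrauma, Loxl2 was 2.57 times (2.53 to 2.62) the d3 level and Plod2 2.53 times (2.48 to 2.58), 2 of 9 against 26.6% of all genes, and 0 were lower, against 3.56%. The all-gene median was 0.48, and 6 of 9 enzymes were above it, by up to 0.88 (Loxl2). With the labels as deposited, Plod2 was at -0.88 and Loxl2 at 0.21 (log2) in this comparison, and neither was past 2-fold.

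Between the injuries on the same day, none of the 9 genes was past 2-fold, against 3.26% of all genes at d3 and 9.21% at d5. The ratios of all genes centred on -0.03 (log2) on each day. At d3, 7 of 9 had a lower level post-polytrauma, with Loxl2 at 0.586 times (0.574 to 0.599) and Plod2 at 0.669 times (0.653 to 0.685) the d3 post-fracture level, and Loxl1 and Plod1 were at 1.13 times and 1.24 times. At d5, 8 of 9 had a higher level post-polytrauma, with Loxl3 at 1.54 times and Loxl1 at 1.48 times the d5 post-fracture level. Of these, Plod1, with overlapping intervals, was at a log2 ratio of 0.04 and Plod3 at 0.06. Plod2 was the exception, at 0.545 times (0.537 to 0.553), a log2 ratio of -0.88. That ratio was -0.48 without cells with chondrocyte markers. All 8 of 8 listed collagen and elastin genes had a lower level post-polytrauma at d5, as did 7 of 7 compared at d3. As deposited, 8 of 8 instead had a higher level post-polytrauma on each day. With the labels as deposited, Plod2 was past 2-fold higher post-polytrauma at d3 (log2 ratio 1.63), Loxl2 and Plod2 were at d5 (1.36 and 1.34), and Lox, Loxl2, P4ha1 and Plod3 also changed sign at d3.

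**Figure D2:**
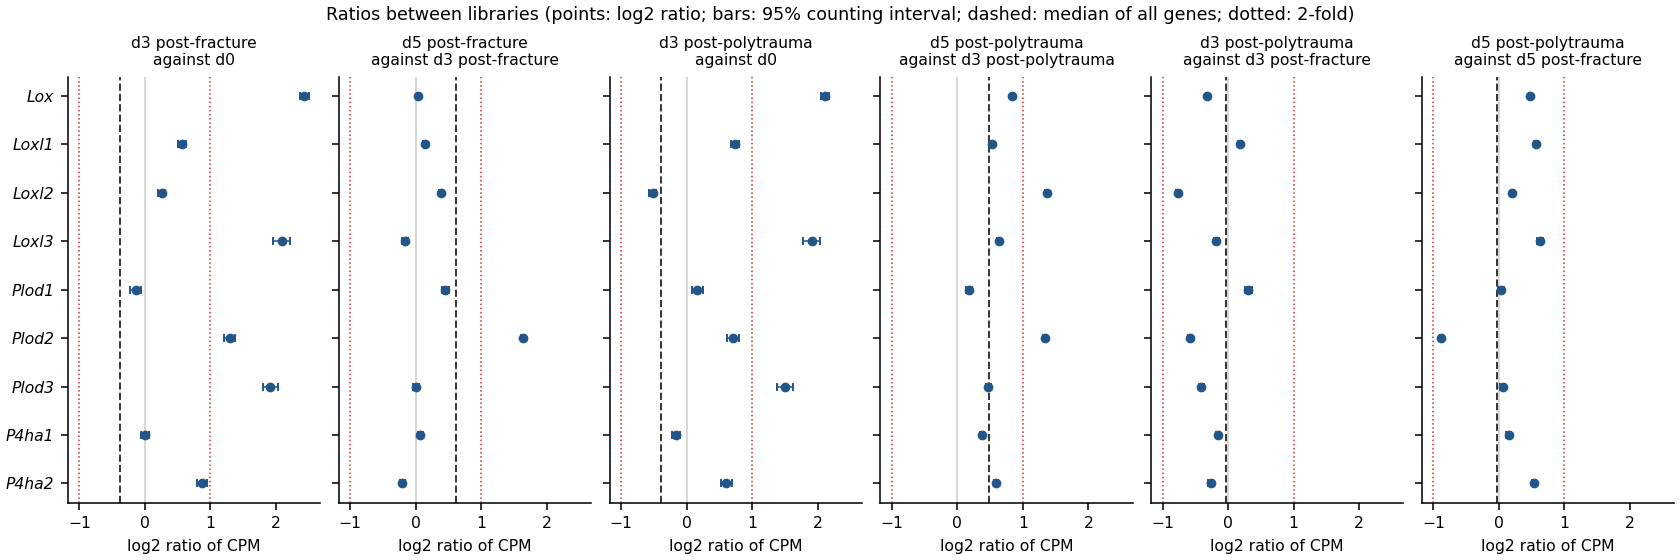
Ratios between libraries for the 9 genes with at least 5 CPM. Each panel is 1 comparison; points are log2 ratios of CPM, bars the 95% counting interval, the dashed line the median of all genes compared and dotted lines 2-fold. Lox, Loxl3 and Plod3 lay past 2-fold in both comparisons with d0, and Plod2 lay farthest right from d3 to d5 post-fracture (1.63) and farthest left between the injuries at d5 (-0.88).

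Of 21 other genes of collagen maturation, 19 could be compared between d3 post-fracture and d0, and 7 were past 2-fold higher and 5 lower, against 11.8% and 30% of all genes, with a median log2 ratio of -0.03 beside -0.37 for all genes. Higher were among others P4ha3, another prolyl 4-hydroxylase alpha subunit (5.39 CPM in d0 and 44.1 in d3 post-fracture), P3h1, a prolyl 3-hydroxylase (17.4 and 80.7 CPM), Fkbp10, a chaperone needed for telopeptide lysine hydroxylation (71.9 and 291 CPM), and P4hb (235 and 798 CPM). Lower were among others Colgalt2, a collagen galactosyltransferase (16.1 and 0.911 CPM), and Tmem38b, an endoplasmic reticulum channel (47.4 and 9.58 CPM). At d3 post-polytrauma against d0, 4 were higher and 4 lower of 19, against 11.1% and 29.4%. From d3 to d5, 9 of 21 were past 2-fold higher post-fracture, against 35.9% of all genes, and 8 of 18 post-polytrauma, against 26.6%. In both, 0 were lower, against 4.22% and 3.56% of all genes. P3h4, which acts with lysyl hydroxylases on helical lysines, was at 32.9 and 134 CPM post-fracture and at 24.3 and 120.0 CPM post-polytrauma. Between the injuries, 0 of 17 were past 2-fold in either direction at d3, against 3.26%, and 4 of 21 were lower post-polytrauma at d5, where 9.21% of all genes were past 2-fold in either direction. Of 10 hypoxia-induced genes, 5 were higher and 2 lower at d3 post-fracture against d0, beside 11.8% and 30% of all genes. At d3 post-polytrauma, 6 were higher and 1 lower, beside 11.1% and 29.4%. From d3 to d5 post-fracture, 0 of 9 were higher and 5 lower, beside 35.9% and 4.22%. Post-polytrauma, 0 of 10 were higher and 4 lower, beside 26.6% and 3.56%. Between the injuries at d3, 10 of 10 had a higher level post-polytrauma, 1 of them past 2-fold, beside 3.26% in either direction. At d5, 2 of 9 were past 2-fold higher and 1 lower, beside 9.21% in either direction. With the labels as deposited, the counts and shares from d3 to d5 post-fracture and those between the injuries at d3 change places, for both lists. Those from d3 to d5 post-polytrauma and between the injuries at d5 do so too. From d3 to d5, 0 of 17 collagen maturation genes were then past 2-fold higher post-fracture and 0 of 21 post-polytrauma. The lists were not counted against d0 with these labels.

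Each library was clustered by itself with the 10 genes, the lists above and the cell type markers left out of the variable genes, which gave 46 clusters of at least 50 cells. Cluster 5 of d5 post-fracture was chondrocyte-like (187 cells, median 47086 UMIs, led by Col2a1, Hapln1 and Col9a3). There Plod2 was at 1057 against 389 CPM in the other cells of the library (2.72-fold, 2.65 to 2.78), Plod1 at 159 against 67.9 CPM, Plod3 at 247 against 108 CPM, P4ha1 at 254 against 111 CPM and P4ha2 at 230.4 against 107 CPM. Loxl4 was at 10.5 CPM (8.51 to 12.9), against 2.42 CPM. The other lysyl oxidases were split: Lox was at 212 against 686 CPM and Loxl1 at 39.3 against 273 CPM, 3.23 and 6.93 times lower, while Loxl2 was at 400.0 against 255 CPM and Loxl3 at 162 against 99.7 CPM. In all, 6 of 10 genes were past 2-fold higher in this cluster, against 10.6% of all genes, and 2 lower, against 16.9%. With 12.7% of the cells, it held 36.1% of the Plod2 UMIs of its library and 2.91% of those of Loxl1. Of 9 hypoxia-induced genes, 6 were past 2-fold higher there and 2 lower.

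The chondrocyte-like cluster 8 of d5 post-polytrauma had 365 cells with a median of 1496 UMIs, and 225 of them carried a barcode that another library also held without being at least 10 times deeper here. Plod2 was at 614 against 270.2 CPM in the other cells, and at 588 CPM (558 to 619) in the 140 cells without those barcodes. Lox was at 384 against 848 CPM, and at 379 CPM without them. Loxl1 was at 83.8 against 348 CPM, and at 81.3 CPM without them. Plod2 was thus above and Lox and Loxl1 below the other cells of both d5 libraries in the chondrocyte-like clusters. With finer clustering (Leiden resolution 1.0), the chondrocyte-like cluster of d5 post-polytrauma held 205 cells (median 5461 UMIs), 47.8% of them with shared barcodes. An unnamed cluster of 335 cells led by Xist, Sfrp4 and Dlk1 (median 1469 UMIs) had 52.5% there. How the cells of cluster 8 were divided at that resolution was not followed. The study reports its chondrocyte population at d5 post-fracture. Whether cells of cluster 8 with shared barcodes came from that library was not tested. In cluster 8, with those cells kept, 2 of 10 genes were past 2-fold higher, against 5.74% of all genes, and 2 lower, against 8.71%. Of 9 hypoxia-induced genes, 0 were higher and 4 lower.

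Cluster 6 of d5 post-fracture, fibroblast-like and led by Col5a3, Enpp1 and Lrrc15 (136 cells), was the highest of its library for Lox, Loxl2, Loxl3 and P4ha2. Lox was at 1039.7 against 554 CPM in the other cells (1.88-fold, 1.82 to 1.93), Loxl2 at 643 against 238 CPM (2.70-fold, 2.60 to 2.81), Loxl3 at 233 against 96.3 CPM (2.42-fold, 2.27 to 2.58) and P4ha2 at 309 against 108 CPM (2.87-fold, 2.71 to 3.03), while Plod2 was at 490.0 against 506 CPM. There 3 of 9 genes were past 2-fold higher, against 3.35% of all genes.

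Cluster 4 of d3 post-polytrauma (578 cells) could not be named from its markers and was led by Ndufa4l2, Cox4i2, Selenbp1 and Mgarp, with Egln3, Pgk1 and Bnip3 among its 10 leading genes. P4ha2 was at 294 against 106 CPM in the other cells (2.77-fold, 2.65 to 2.89), Plod1 at 162 against 67.0 CPM (2.41-fold, 2.28 to 2.55) and P4ha1 at 193 against 108 CPM (1.78-fold, 1.69 to 1.87). Plod3 was at 97.6 against 99.4 CPM and Loxl1 at 226 against 240.4 CPM. There 2 of 9 genes were past 2-fold higher, against 1.24% of all genes, as were 5 of 10 hypoxia-induced genes. Cluster 4 of d5 post-polytrauma (1445 cells) was FAP/MP-like by its markers but led by Ankrd1, Ereg, Il11 and Ndufa4l2. P4ha2 was at 365 against 149 CPM (2.45-fold, 2.40 to 2.50), P4ha1 at 233 against 134 CPM (1.74-fold, 1.70 to 1.79), Lox at 1270.3 against 752 CPM (1.69-fold, 1.67 to 1.71) and Plod2 at 274 against 275 CPM. There 1 of 9 genes was past 2-fold higher, against 1.4% of all genes, as were 8 of 10 hypoxia-induced genes.

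In uninjured muscle P4ha1 and P4ha2 were placed apart in some clusters. In cluster 6 of d0 (312 cells, unnamed, with Chad, Wif1, Bglap2 and Fmod among its leading genes and all 4 tenocyte markers raised), P4ha1 was at 309 against 111 CPM in the other cells and P4ha2 at 27.9 against 86.3 CPM. In the tenocyte-like cluster 10 of d0 (136 cells) they were at 232 against 126 CPM and 26.6 against 82.8 CPM. In cluster 4 of d0, FAP/MP-like and led by G0s2 and Hsd11b1, they were at 154 against 127 CPM and 186 against 69.4 CPM. Lox was uneven at d0 as well: cluster 6 was at 461 against 73.1 CPM (6.30-fold, 5.74 to 6.92) and held 39.1% of the Lox UMIs with 6.74% of the cells. There 3 of 10 genes were past 2-fold higher, against 8.16% of all genes, and 1 lower, against 14.6%. Loxl1 and Loxl2 were highest in cluster 1 of d0, FAP/MP-like and with Mrgprg, Stmn4 and Pi16 among its leading genes, at 319 and 337 CPM, where Lox was at 54.0 against 124 CPM.

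Pericyte-like clusters differed in how many of the enzymes were low. In cluster 3 of d0 (753 cells), 8 of 9 genes were past 2-fold lower, against 27.8% of all genes, with Loxl2 at 25.4 against 215 CPM and Lox the exception at 112 against 108 CPM. In cluster 9 of d3 post-fracture (69 cells, median 3581 UMIs), 9 of 9 were lower, against 12.6%. In cluster 8 of d3 post-fracture, 3 of 9 were lower, against 5.04%, in cluster 11 of d3 post-polytrauma 4 of 9, against 6.58%, and in cluster 9 of d5 post-polytrauma 4 of 9, against 5.2%. The last of these also had muscle fibre genes (Acta1, Mylpf, Myl1 and Ttn) among its leading genes. The hematopoietic-like cluster of d3 post-polytrauma (100 cells) had 7 of 9 lower, against 12%, with Lox at 107 against 473 CPM. In the opposite direction, cluster 10 of d3 post-polytrauma (69 cells, unnamed, median 4645 UMIs, led by mitochondrial transcripts) had 9 of 10 genes past 2-fold higher, against 30.6%, with Loxl3 at 512 against 108 CPM.

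**Figure D3:**
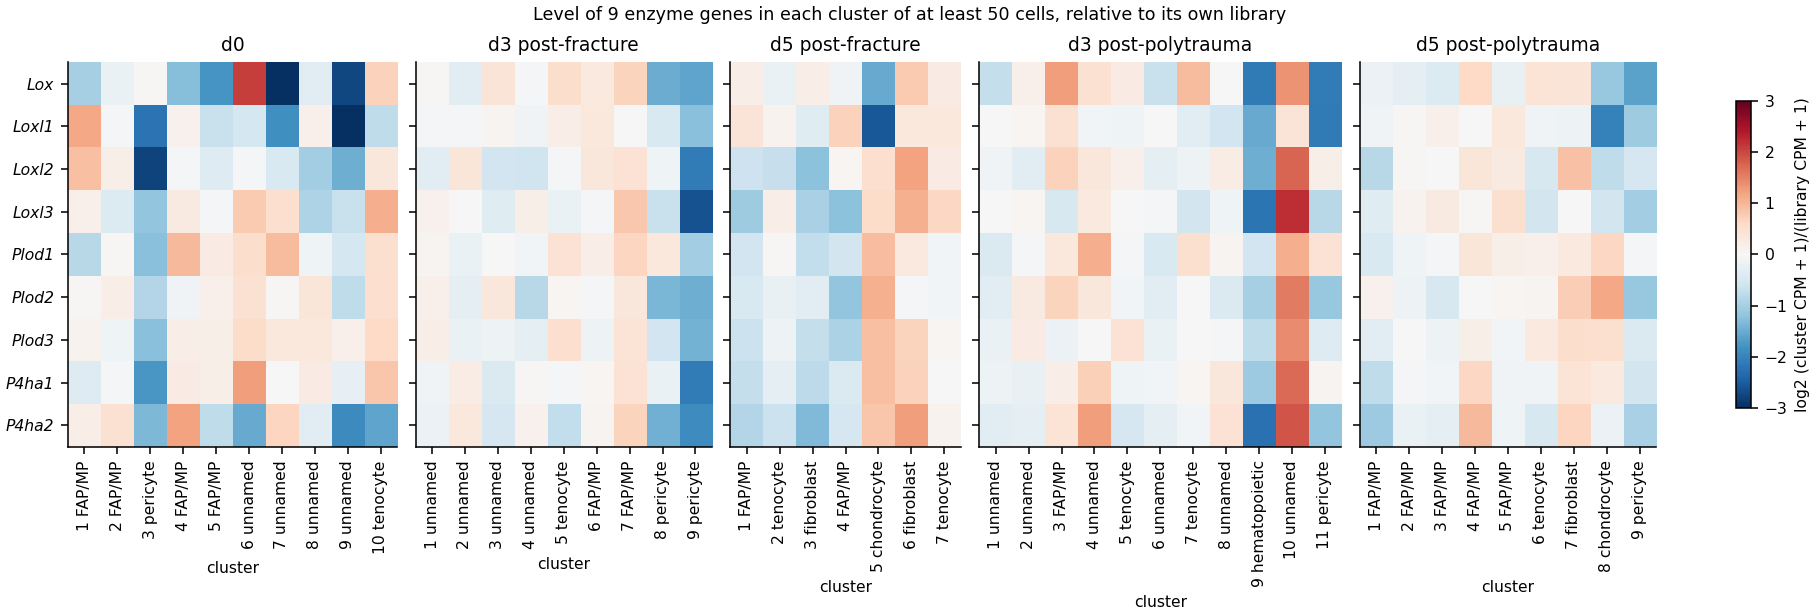
Levels of 9 enzyme genes in the 46 clusters of at least 50 cells. Columns are clusters of each library with the cell type they were named for, rows are genes, and the colour is the log2 of the cluster's CPM + 1 over its library's CPM + 1. The chondrocyte column of d5 post-fracture is red for Plod1, Plod2, Plod3, P4ha1 and P4ha2 (Plod2 at 1057 CPM) and blue for Lox and Loxl1 (212 and 39.3 CPM).

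Likeness of pattern was described by Pearson's r over the 46 clusters on log2(CPM + 1) centred within each library, over 7558 genes. The clusters of a library are not independent and differ in depth (medians of 2367 to 24448 UMIs at d3 post-fracture), so no test was attached. Plod3 and P4ha1 were the enzymes most alike (r = 0.85), followed by Plod1 with P4ha1 (r = 0.82) and Loxl3 with P4ha1 (r = 0.82), while P4ha1 with P4ha2 had r = 0.63. The least alike were Loxl1 with Plod1 (r = 0.00), Loxl1 with Plod3 (r = 0.15) and Lox with Plod1 (r = 0.16). Among all genes, Plod3 was most like Lman1, a cargo receptor of the early secretory route (r = 0.91), P4ha1 most like Sec23a, a COPII coat subunit (r = 0.90), and Loxl3 most like Alg5, an enzyme of N-glycosylation (r = 0.89). Plod2 was most like P3h4 (r = 0.84), Plod1 most like P4ha1, and Loxl2 most like Golim4 (r = 0.81). Lox was most like Thbs2, a matricellular glycoprotein (r = 0.76), Loxl1 most like Fbn1, a fibrillin of elastic fibres (r = 0.80), and P4ha2 most like Ddx18, an RNA helicase (r = 0.76).

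**Figure D4:**
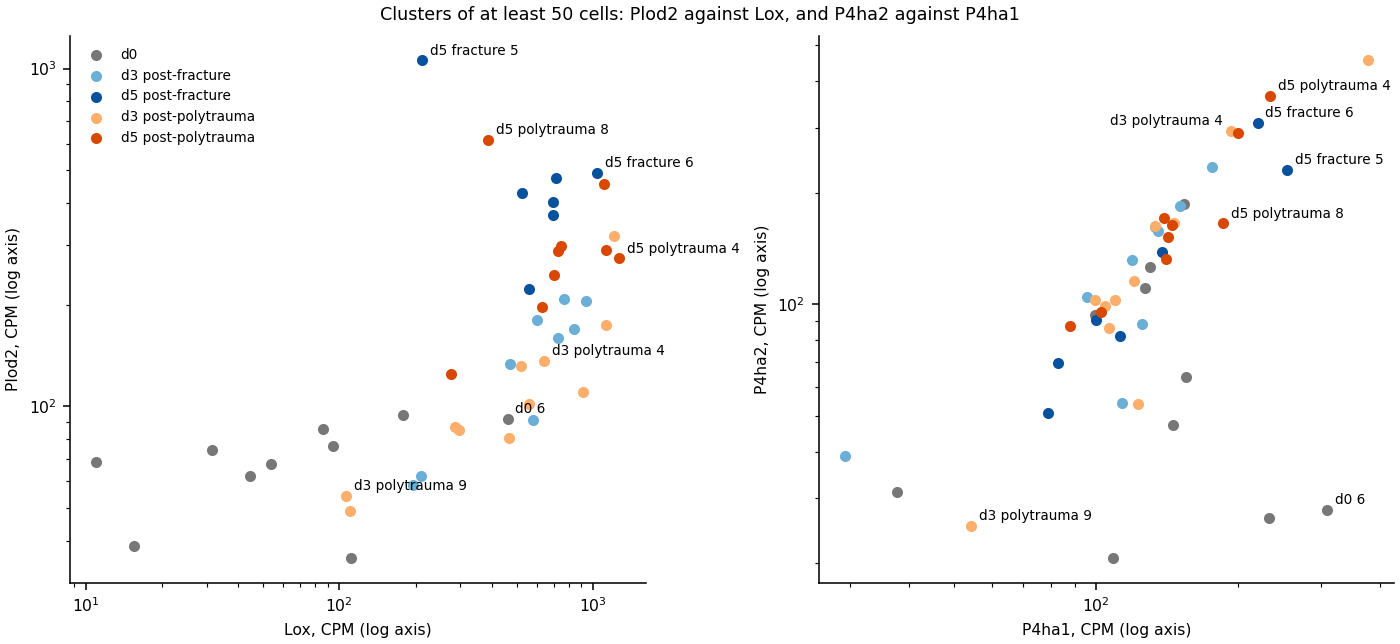
Pairs of enzyme genes across the 46 clusters. Points are clusters coloured by library, both axes are CPM on a log scale, and some points carry their library and cluster number. Left, cluster 5 of d5 post-fracture lies highest for Plod2 (1057 CPM) at a Lox level of 212 CPM; right, cluster 6 of d0 has P4ha1 at 309 CPM and P4ha2 at 27.9 CPM.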

How the data were processed

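Per the labels, the authors made Chromium Single Cell 3′ libraries from sorted GFP+ cells. The submitters' processing notes name Cell Ranger, Seurat 3.1.2 and mm10, and the matrix headers name Cell Ranger 3.1.0. The deposited matrices hold whole-number UMI counts per gene and barcode with no normalization. The labels of 2 libraries disagree with the study's cell numbers: the library with 2001 barcodes, deposited as d3 post-polytrauma, was used as d5 post-fracture, and the one deposited as d5 post-fracture as d3 post-polytrauma.

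Barcodes with 350 to 8000 genes, under 20% mitochondrial UMIs and at least 1000 UMIs were kept. A gene was past 2-fold by the ratio of its CPM, among genes with at least 5 CPM on either side and with counts under 3 set to 3; members and all genes were counted alike. Each condition has 1 library, so no test was run. Each library was clustered with scanpy 1.11.5 (2000 variable genes, 20 principal components, 15 neighbours, Leiden resolution 0.5), and a cluster name needed at least 3 raised markers. Possible doublets, the highest Scrublet scores at 0.8% per 1000 cells, were kept and left out as an alternative, since the automatic threshold marked almost none. Ratio intervals were tried on simulated Poisson counts, which hold no variation between cells, mice or libraries, so only counting error was covered. Of the gene IDs, 31011 (99.9%) were found in GENCODE mouse release 21, which gave positions; RefSeq gave promoters.

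The members and lists were chosen with earlier results of these data known. The rule named all 10 members, listed genes of collagen maturation, substrates and hypoxia-induced genes, and the genes most like each member; clusters and their leading genes were picked after their values were seen. Alternatives were thinning to 1000 UMIs or none, median-of-ratios scaling, the mean of each cell's CPM, thinned cells, no UMI minimum, 1.5-fold, labels as deposited, Leiden resolution 1.0, and leaving out shared barcodes, doublets or dividing cells. Leaving out every barcode that another library lists, and cells with chondrocyte markers, was chosen after seeing the data.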

Additional observations from a re-analysis of the deposited data

Results flagged for a closer look

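From d3 to d5 the level went opposite ways in the fracture and the polytrauma libraries for Loxl3, with a log2 ratio of -0.17 post-fracture and 0.64 post-polytrauma, and for P4ha2, with -0.20 and 0.60. The difference between the injuries was not tested, since each condition has 1 library. The signs were the same with median-of-ratios scaling (-0.90 and 0.15 for Loxl3, -0.94 and 0.11 for P4ha2) and with the labels as deposited (-0.18 and 0.63, -0.26 and 0.54). Without cells with chondrocyte markers, which made up 30.0% of thinned cells in d5 post-fracture and 3.76% in d5 post-polytrauma, the values were -0.31 and 0.65 for Loxl3 and -0.44 and 0.60 for P4ha2.

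Against d0, a library that both comparisons share, Loxl2 was at a log2 ratio of 0.25 at d3 post-fracture and -0.52 at d3 post-polytrauma, and Plod1 at -0.14 and 0.17. These differences were not tested either. With median-of-ratios scaling the values had 1 sign, 0.83 and 0.02 for Loxl2 and 0.43 and 0.70 for Plod1. Relative to the median of all genes in each comparison of CPM, Loxl2 still went opposite ways (0.63 and -0.13), while Plod1 did not (0.23 and 0.55). With the labels as deposited, Loxl2 at d3 post-polytrauma against d0 was 0.64.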

How the results depend on the processing

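The number of genes past 2-fold was within 1.5 times of the reported count in 55 of 66 combinations of comparison and setting. With a threshold of 1.5-fold it was 6 for d3 post-polytrauma against d0, 5 for d5 against d3 post-polytrauma, and 1 and 2 for post-polytrauma against post-fracture at d3 and d5. With median-of-ratios scaling it was 6 for d3 post-polytrauma against d0 and 0 and 0 for d5 against d3 post-fracture and post-polytrauma; this scaling lowers every d5 against d3 ratio of an injury by the same amount. With the labels as deposited it was 0 and 0 for d5 against d3 post-fracture and post-polytrauma. It was 1 and 2 between the injuries at d3 and d5, and Plod2 from d3 to d5 reversed to -0.58 and -0.88 (log2). Shares of all genes were not set beside the counts of these settings. Lox from d3 to d5 post-fracture was 0.04 as reported, -0.70 with median-of-ratios scaling and -0.35 without any barcode found in another library, which leaves out 869 of 1468 cells of d5 post-fracture; there Loxl2 was -0.12 in place of 0.39 and Plod2 1.24 in place of 1.63. Leaving out possible doublets or shared barcodes, or dropping the minimum of 1000 UMIs, moved 0 of 60 log2 ratios past their counting interval, against 57 of 60 with median-of-ratios scaling. Thinned cells moved 46, the mean of each cell's CPM 42, and the labels as deposited 40, with 2 more reversed. Leaving out dividing cells moved 20, cells with chondrocyte markers 22, and every barcode found in another library 20. At Leiden resolution 1.0 the highest Plod2 level of a d5 post-fracture cluster was 1159 CPM in place of 1057, and the highest Lox level at d3 post-fracture 1543 in place of 941 CPM. No paired analysis was possible because each condition has 1 library.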

Other observations

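Cluster 7 of d3 post-fracture (163 cells, FAP/MP-like, median 7730 UMIs, with Lars2 and mt-Nd1 among its 10 leading genes) was the highest of its library for Lox, at 941 CPM (893 to 991), and for P4ha2, at 235 CPM (211 to 261). Cluster 4 of d3 post-fracture (334 cells, unnamed, led by Lyz2, Cd74 and Pf4, median 2367 UMIs) had Lox at 579 against 589 CPM in the other cells and Col1a1 at 6949 against 5299 CPM. At Leiden resolution 1.0, a hematopoietic-like cluster of this library led by Lyz2, Cd74 and Pf4 held 26 cells. An unnamed cluster of 303 cells (median 2239 UMIs) was led by Rpgrip1 and Gm26771 there. How the cells of cluster 4 were divided between these clusters was not followed. Cluster 4 was not used as a reference for free RNA, and whether its UMIs came from free RNA was not tested. A reference chosen with these levels in view can understate free RNA.

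A median of 1 of the 10 enzyme genes had a UMI in a thinned cell of d0, 2 in both d3 libraries and 3 in both d5 libraries. The means were 2.58 and 2.60 at d3 and d5 post-fracture, and 2.30 and 3.16 post-polytrauma. Cells with none made up 5.16% and 7.16% at d3 and d5 post-fracture, and 9.14% and 2.41% post-polytrauma. Cells with none made up 26.9% at d0 and 2.41% to 9.14% after injury, and cells with at least 3 made up 14.6% and 41.4% to 64.7%.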
